A study of Mus musculus with 9 samples.

Results

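The nuclear genes for the protein subunits of mitochondrial oxidative phosphorylation were followed through fat cell differentiation and through loss of PPAR gamma in mature fat cells. The members were the genes whose array annotation symbol begins with Nduf, Uqcr or Atp5, or is Sdha to Sdhd, Cyc1 or one of the Cox4 to Cox8 subunit genes, without Cox7a1 and Cox8b. This gave 89 of the 18193 genes that had a probe set with a single gene symbol. Of these, 79 encode subunits, with 34 in complex I, 4 in complex II, 9 in complex III, 15 in complex IV and 17 in complex V. The other 10 were kept apart from the complexes: the complex I assembly factors Ndufaf1 to Ndufaf8, and Ndufa4l2 and Cox7a2l. Each gene was read through 1 probe set, the one with the highest mean level.

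The cells were 3T3-L1, an established mouse line of fibroblasts able to become fat cells under hormones, and 9 single-colour oligonucleotide arrays were deposited, 1 for each RNA sample. The first group was 3 arrays of adipocytes given an siRNA that targets PPAR gamma, a nuclear receptor required for fat cell differentiation. The second was 3 arrays of adipocytes given a non-targeting control siRNA, and the third was 3 arrays of undifferentiated preadipocytes. Both adipocyte groups had been induced with insulin at 10 µg/ml, IBMX, which blocks phosphodiesterases, at 0.5 mM, and dexamethasone at 1 µM, and were detached and electroporated 14 days after induction with 2 or 3 nmol of siRNA. The labels describe electroporation for adipocytes only, so differentiation and electroporation cannot be told apart in comparisons with preadipocytes. The series calls the 3 arrays of a group technical replicates, so that SDs, SEs and p-values below measure the spread between such arrays and not between separate cultures.

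Oxidative phosphorylation passes electrons from NADH through complex I, and from succinate through complex II, to ubiquinone, then through complex III, cytochrome c and complex IV to oxygen. Complexes I, III and IV pump protons out of the mitochondrial matrix, and complex V, the ATP synthase, uses their return to make ATP. All complexes but complex II hold core subunits encoded in mitochondrial DNA, which the symbol rule does not reach, and many nuclear subunits around them. Fat cell differentiation is known to expand the mitochondria of the cell, whose oxidation and carbon export feed lipid synthesis and adipokine secretion.

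The array medians were alike, from 4.82 to 4.89 on the deposited log2 scale. The control probe sets were less even. BioB, read through its 5' probe set, had 8.27 ± 0.29 with PPAR gamma siRNA, 8.60 ± 0.15 with control siRNA and 7.38 ± 0.27 in preadipocytes (mean ± SD). CreX, read through its 3' probe set, had 13.67 ± 0.21, 13.74 ± 0.06 and 13.52 ± 0.10 in the same order. What part this had in the results was not tested. Pparg itself had 9.59 ± 0.05 with PPAR gamma siRNA, 12.79 ± 0.12 with control siRNA and 8.22 ± 0.12 in preadipocytes (mean ± SD, n = 3 arrays each). All 7 measured adipocyte markers rose in differentiation (control siRNA adipocytes against preadipocytes) and fell between the siRNAs (PPAR gamma siRNA against control siRNA). Marker counts here stand against 27.1% of all genes higher and 24.7% lower in differentiation. Between the siRNAs the shares of all genes were 19.9% higher and 16.1% lower. Their summed level, as log2 of the summed linear values, was 14.82 to 14.88 with PPAR gamma siRNA, 16.41 to 16.49 with control siRNA and 12.47 to 12.57 in preadipocytes. All 8 preadipocyte and fibroblast markers fell in differentiation, and 7 of 8 rose between the siRNAs. Their sum was 15.10 to 15.44, 13.38 to 13.73 and 16.01 to 16.13 in the same order of groups. The macrophage list, of which 1 of 8 genes passed with PPAR gamma siRNA against control siRNA (Cd14, 1.78), summed to 9.06 to 9.16, 8.28 to 8.30 and 8.10 to 8.19, and the pan-leukocyte gene Ptprc averaged 3.46, 3.36 and 3.24, below the array medians. Of 6 endothelial markers 1 passed in differentiation and 0 between the siRNAs, and their sum was 6.63 to 6.87, 6.62 to 6.83 and 6.38 to 6.62. The muscle list summed to 8.85 to 8.99, 10.48 to 10.73 and 7.57 to 7.73. Of its 8 genes 4 rose in differentiation, the most myoglobin (Mb, 5.03), and 2, Mb and desmin (Des), fell between the siRNAs. Myod1 and Myog averaged between 3.65 and 4.22. What part the shares of cell states had in the results was not tested, and in RNA from whole cultures fewer cells of a type and less RNA per cell cannot be told apart.

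Subunit genes of all 5 complexes were higher in fat cells, and most were lower once PPAR gamma was depleted. Control siRNA adipocytes had 77 of the 79 subunits higher than preadipocytes and 0 lower at an adjusted p under 0.05 (limma, Benjamini-Hochberg), against 27.1% of all genes higher and 24.7% lower. The median log2 change of the subunits was 1.25, against 0.09 over all genes. At least 2-fold higher were 57 subunits, a class that held 8.83% of all genes. With PPAR gamma siRNA, 73 of the 79 were lower than with control siRNA and 0 were higher, against 16.1% lower and 19.9% higher among all genes. Their median log2 change was -0.90, against -0.01 over all genes, and 36 fell at least 2-fold, against 4.61% of all genes. At an unadjusted p under 0.05 the same fit also gave 0 subunits lower in the differentiated cells and 0 higher with PPAR gamma siRNA.

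**Figure D1:**
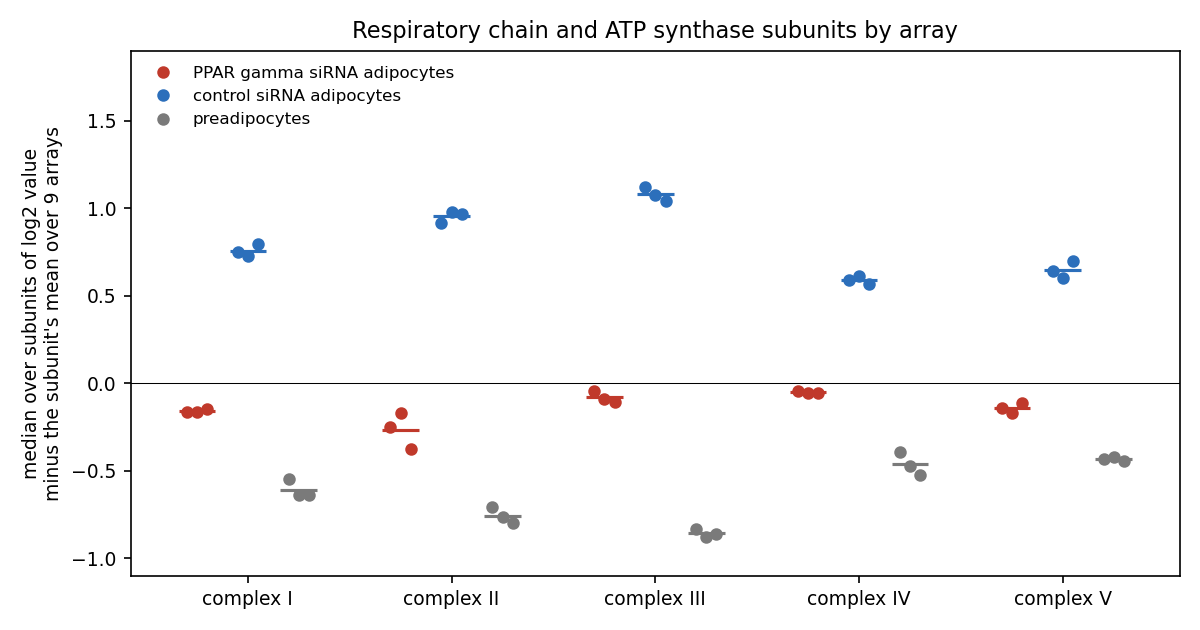
Median level over the subunits of each complex on each of the 9 arrays, as log2 value minus each subunit's mean over the arrays, with PPAR gamma siRNA left, control siRNA in the middle and preadipocytes right. In each of the 5 complexes the control siRNA arrays lie above the 6 others.

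Most subunits stayed higher in depleted cells than in preadipocytes. With PPAR gamma siRNA, 57 of 79 subunits were higher than in preadipocytes and 1, Ndufa4, was lower, against 19.6% and 16.9% of all genes. The median difference was 0.42 on the log2 scale, against 0.07 over all genes. Only 2 subunits passed 2-fold, Uqcr11 and Cox6a2, against 4.29% of all genes. The 3 PPAR gamma siRNA arrays all lay above the 3 preadipocyte arrays in 64 subunits, against 28.8% of all genes, and all below in 2, Ndufa4 and Atp5b, against 21.1%. In the same terms, the control siRNA arrays lay above the preadipocyte arrays in 77 subunits, against 34.0% of all genes, and the PPAR gamma siRNA arrays below the control siRNA arrays in 73, against 21.0%. The 3 comparisons share arrays, so their values stand side by side and are not independent of one another.

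**Figure D2:**
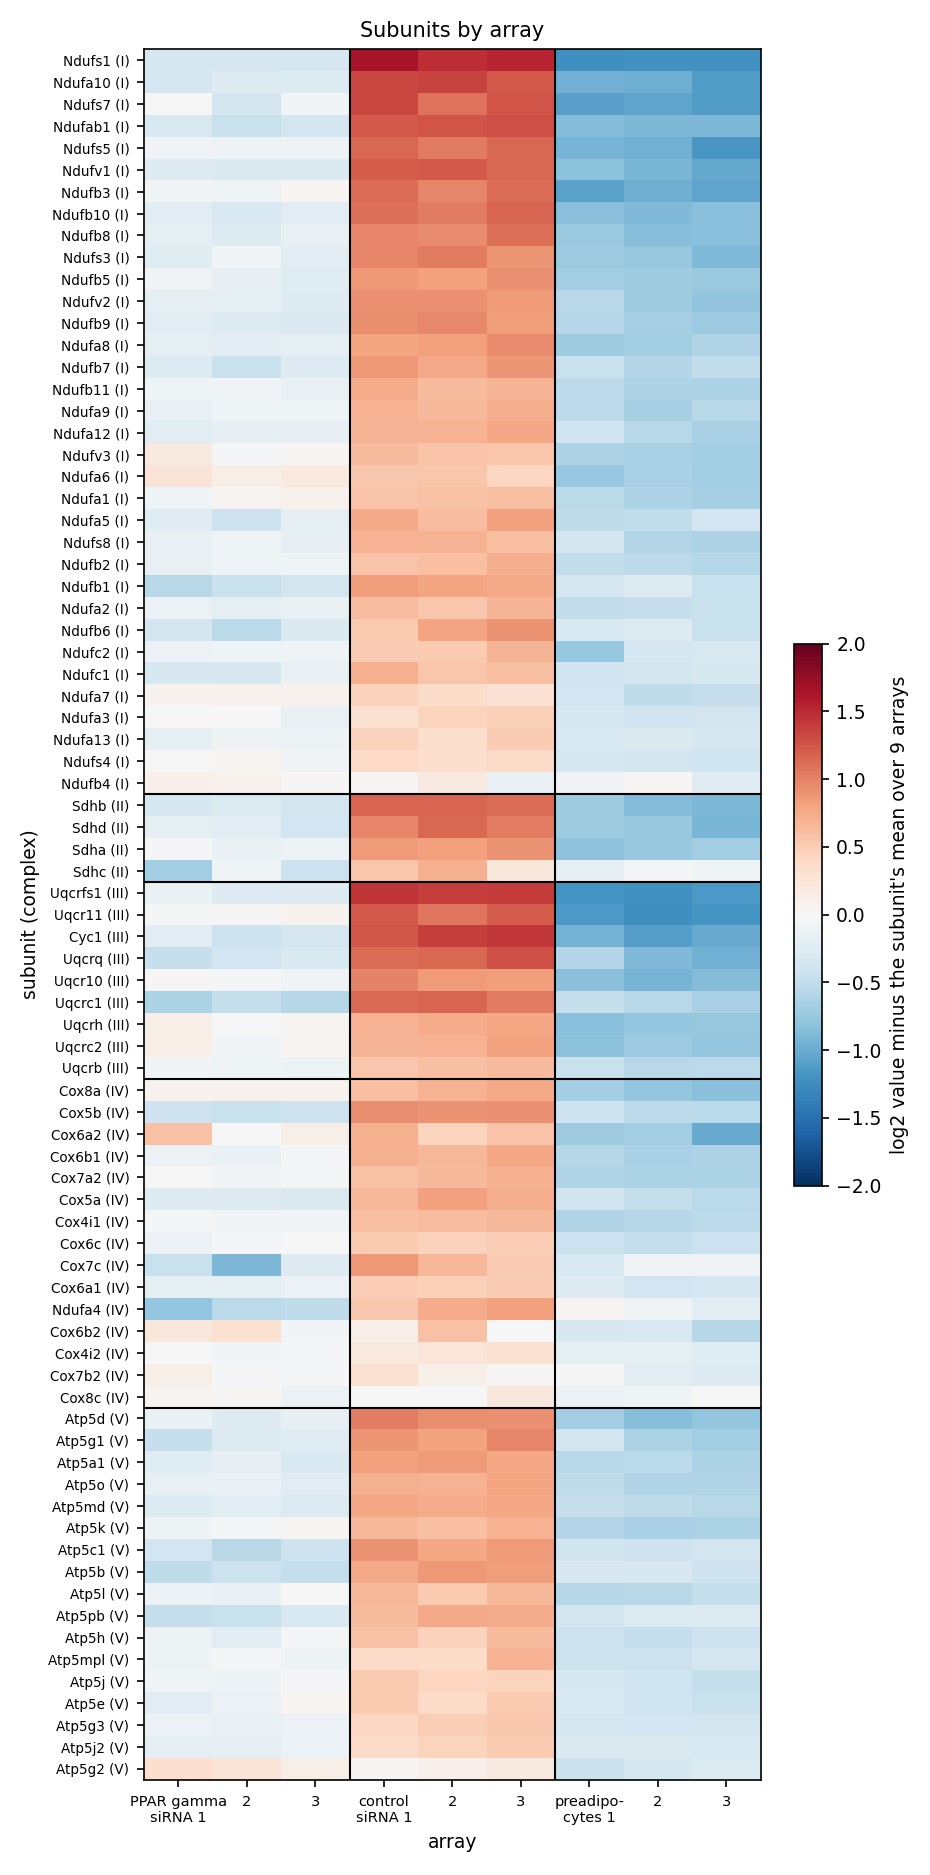
The 79 subunits by array, coloured by log2 value minus the subunit's mean over the 9 arrays, ordered by complex; arrays run from PPAR gamma siRNA through control siRNA to preadipocytes. The 3 control siRNA columns are high almost throughout, and pale rows include Ndufb4 and the complex IV isoforms Cox7b2 and Cox8c.

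The median changes differed in size between the complexes. In control siRNA adipocytes against preadipocytes the median log2 change was 1.26 in complex I, 1.73 in complex II, 1.77 in complex III, 0.94 in complex IV and 1.15 in complex V. With PPAR gamma siRNA against control siRNA it was -1.02, -1.13, -1.14, -0.66 and -0.70, in that order of complexes. Against preadipocytes the PPAR gamma siRNA cells were at 0.48, 0.52, 0.82, 0.20 and 0.31. These medians carry no test between complexes, because subunits are not replicates, and their order depends on the probe set choice: after omission of types x and s, which can match related transcripts, complex III had -0.92 between the siRNAs and complex I -1.03. Without its 5 tissue isoforms complex IV had medians of 1.20, -0.74 and 0.29 in the 3 comparisons. Brightness also differed between complexes. Control siRNA means of 13 or more, near the array maximum of 14.59, were found for 8 of 34 subunits of complex I, 0 of 4 of II, 4 of 9 of III, 8 of 15 of IV and 9 of 17 of V. The 29 bright subunits had a median change of -0.68 with PPAR gamma siRNA and the 50 others -0.94, while in differentiation the medians were 1.24 and 1.26. The direction differed within complexes: between the siRNAs the bright subunits had -0.67 and the others -1.03 in complex I and -0.91 and -1.57 in complex III, but -0.68 and -0.28 in complex IV and -1.05 and -0.64 in complex V. In complex IV the others were the 5 tissue isoforms, Cox7c and Ndufa4. Of these, Cox7c had -1.22 and Ndufa4 -1.31 between the siRNAs, and the median of -0.28 was that of the isoform Cox4i2. What saturation of bright probes contributes was not tested.

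**Figure D3:**
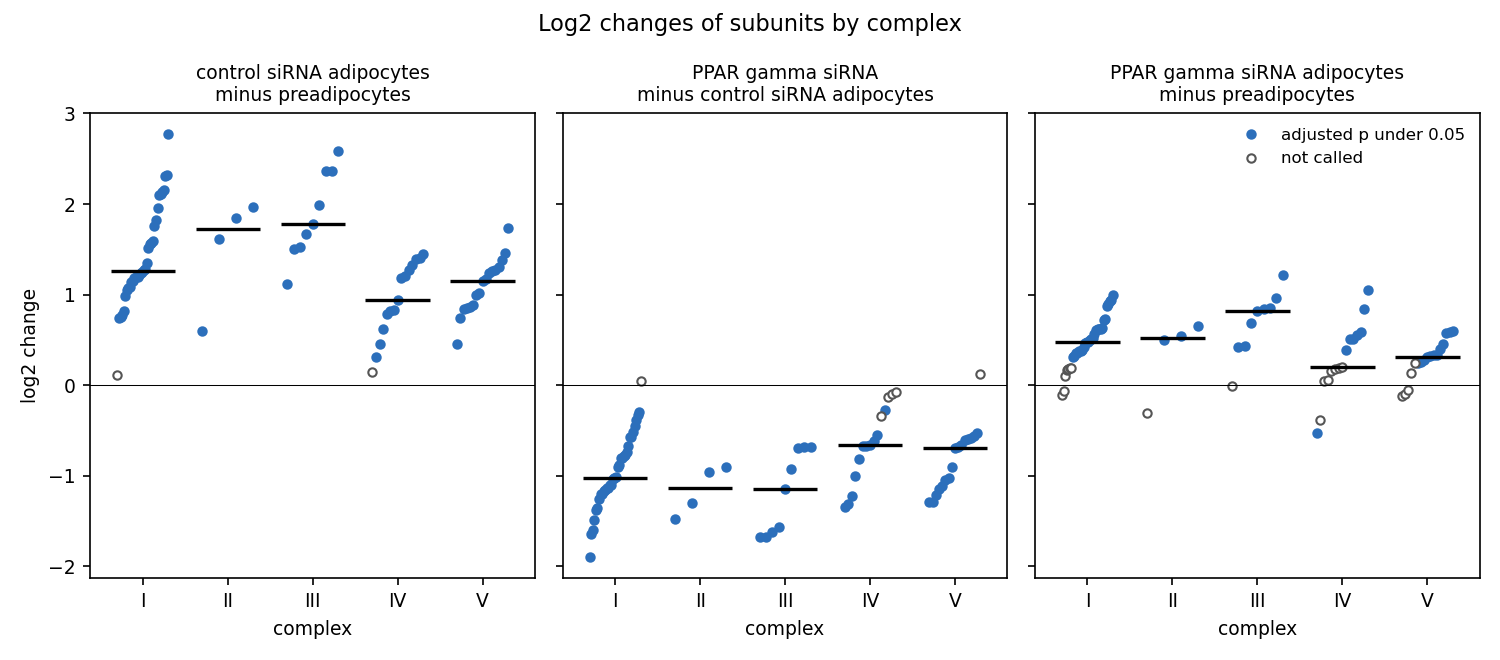
Log2 change of each subunit by complex in the 3 comparisons, with a bar at the median. Complex I reaches 2.77 in differentiation and -1.89 with PPAR gamma siRNA, both for Ndufs1, and complex V 1.73 for Atp5d and -1.29 for Atp5b.

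Complex I oxidises NADH. Its 6 measured nuclear core subunits, among them those that carry the flavin and the iron-sulfur clusters, all rose in differentiation and all fell between the siRNAs, with medians of 1.94 and -1.26. The 28 accessory subunits had medians of 1.23 and -0.89, with 27 higher and 27 lower. Ndufs1, the large iron-sulfur subunit of the NADH-oxidising arm, read 10.26, 10.26 and 10.26 on the PPAR gamma siRNA arrays, 12.25, 12.08 and 12.12 on the control siRNA arrays, and 9.37, 9.38 and 9.39 on the preadipocyte arrays. The groups were well apart, with control siRNA highest and preadipocytes lowest. Its log2 change was 2.77 ± 0.08 in control siRNA adipocytes against preadipocytes (± SE, limma adjusted p = 1.31e-10), a 6.83-fold difference and the highest of the 79 subunits. With PPAR gamma siRNA it was -1.89 ± 0.08 against control siRNA (adjusted p = 1.3e-08) and 0.88 ± 0.08 against preadipocytes (adjusted p = 5.39e-06).

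The other core subunits had smaller changes of the same kind. Ndufs7, the iron-sulfur subunit next to the ubiquinone site, read 11.74, 11.39 and 11.69 with PPAR gamma siRNA, 13.09, 12.83 and 13.01 with control siRNA, and 10.66, 10.70 and 10.64 in preadipocytes. No array of one group overlapped another group. Its log2 change was 2.31 in differentiation and -1.37 with PPAR gamma siRNA against control siRNA. Ndufv1, which binds the flavin and NADH, changed by 2.12 and -1.48. For Ndufs3, Ndufv2 and Ndufs8 the differentiation changes were 1.76, 1.57 and 1.18, and the PPAR gamma siRNA changes -1.14, -1.10 and -0.80. All 6 stayed higher with PPAR gamma siRNA than in preadipocytes, with a median of 0.63.

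Among accessory subunits the changes spread widely. Ndufa10 had the largest rise of them in differentiation, 2.32 ± 0.08, and was at -1.59 ± 0.08 with PPAR gamma siRNA against control siRNA. Ndufab1, the mitochondrial acyl carrier protein that also serves lipoic acid synthesis, read 11.78, 11.64 and 11.72 with PPAR gamma siRNA, 13.32, 13.35 and 13.38 with control siRNA, and 11.21, 11.19 and 11.19 in preadipocytes. Its groups did not overlap, and its change with PPAR gamma siRNA, -1.64 ± 0.08, was the largest fall of an accessory subunit of complex I. Against preadipocytes it was 0.51 higher with PPAR gamma siRNA (adjusted p = 0.000324), but the mean of its 5 probe sets gave -0.13. At the low end stood Ndufs4, needed for the stability of the NADH-oxidising arm, and Ndufa7. Ndufs4 read 10.15, 10.19 and 10.06 with PPAR gamma siRNA, 10.54, 10.47 and 10.52 with control siRNA, and 9.80, 9.77 and 9.74 in preadipocytes, and changed by 0.74 in differentiation and -0.38 with PPAR gamma siRNA (adjusted p = 0.00277). Ndufa7 fell by 0.30 on the log2 scale with PPAR gamma siRNA (adjusted p = 0.0155), a call lost under quantile normalisation applied again (adjusted p = 0.104) and without the first control siRNA array (adjusted p = 0.0529). Ndufb4 was not called in any comparison, and its probe set read between 3.50 and 3.93, below the array medians.

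Complex II is succinate dehydrogenase, the enzyme shared by the citric acid cycle and the respiratory chain, and all of its 4 subunits are nuclear. All 4 rose in differentiation and fell between the siRNAs. Sdhb, the iron-sulfur subunit, read 11.33, 11.38 and 11.29 on the PPAR gamma siRNA arrays, 12.82, 12.83 and 12.77 on the control siRNA arrays, and 10.96, 10.80 and 10.76 on the preadipocyte arrays. The control siRNA arrays were highest and the preadipocyte arrays lowest, with no overlap. Its changes were 1.97 ± 0.08 in differentiation (adjusted p = 2.98e-09) and -1.47 ± 0.08 with PPAR gamma siRNA against control siRNA (adjusted p = 1.19e-07). Sdha, the flavoprotein that oxidises succinate, changed by 1.61 and -0.95, and Sdhd, one of the membrane anchors, by 1.85 and -1.30.

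Sdhc, the other membrane anchor, had a more variable reading. It read 10.37, 10.98 and 10.63 with PPAR gamma siRNA, 11.62, 11.77 and 11.29 with control siRNA, and 10.88, 11.05 and 10.98 in preadipocytes. The PPAR gamma siRNA and preadipocyte arrays overlapped, and in both adipocyte groups the spread was wider than for the other subunits of the complex. It rose by 0.59 ± 0.16 in differentiation (adjusted p = 0.00847), a call that was lost with the Actb 3' minus 5' difference as a covariate (adjusted p = 0.128). With PPAR gamma siRNA it was -0.90 ± 0.16 against control siRNA (adjusted p = 0.000822) and -0.31 ± 0.16 against preadipocytes (adjusted p = 0.169).

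Complex III passes electrons from ubiquinol to cytochrome c. By the probe sets used, all 9 measured subunits rose at least 2-fold in differentiation, and all 9 fell between the siRNAs, 5 of them at least 2-fold. Uqcrfs1, the Rieske iron-sulfur protein, read 11.46, 11.33 and 11.33 on the PPAR gamma siRNA arrays, 13.02, 12.98 and 12.99 on the control siRNA arrays, and 10.40, 10.38 and 10.45 on the preadipocyte arrays. The groups lay clear of one another, and its log2 change of 2.59 ± 0.08 in differentiation (adjusted p = 2.2e-10) was a 6-fold difference. With PPAR gamma siRNA it changed by -1.62 ± 0.08 (adjusted p = 3.81e-08). Cyc1, the cytochrome that hands electrons to cytochrome c, changed by 2.36 and -1.67.

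The 2 large core proteins of the matrix side differed in where they stood after PPAR gamma siRNA. Uqcrc1 read 10.62, 10.76 and 10.68 with PPAR gamma siRNA, 12.38, 12.41 and 12.29 with control siRNA, and 10.79, 10.70 and 10.60 in preadipocytes. Its PPAR gamma siRNA and preadipocyte arrays overlapped, at a difference of -0.01 ± 0.09 (adjusted p = 0.949), while it was 1.67 in differentiation and -1.67 with PPAR gamma siRNA against control siRNA. Uqcrc2 read 11.33, 11.14 and 11.25 with PPAR gamma siRNA, 11.88, 11.90 and 12.01 with control siRNA, and 10.38, 10.48 and 10.42 in preadipocytes. It kept its groups apart, with changes of 1.51 in differentiation, -0.69 with PPAR gamma siRNA against control siRNA and 0.82 ± 0.09 against preadipocytes (adjusted p = 1.77e-05). The difference between the changes of the 2 genes was not tested.

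The accessory subunits of complex III had medians of 1.77 and -0.92. Uqcr11, a small accessory protein, read 11.90, 11.96 and 12.004 with PPAR gamma siRNA, 13.15, 13.01 and 13.14 with control siRNA, and 10.77, 10.70 and 10.73 in preadipocytes. All groups were apart, and of the 9 it had the largest difference between PPAR gamma siRNA cells and preadipocytes, 1.22 ± 0.08 or 2.33-fold (adjusted p = 4.75e-07). Uqcrb and Uqcrh, accessory subunits near the ubiquinone site and cytochrome c1, changed by 1.12 and 1.52 in differentiation, and both by -0.68 with PPAR gamma siRNA. Their other probe sets gave 1.49 and 0.88 in differentiation, the latter under 2-fold, and -1.13 and -0.50 between the siRNAs.

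Complex IV, cytochrome c oxidase, reduces oxygen. All 10 subunits without the tissue isoforms rose in differentiation and fell between the siRNAs, with 6 and 4 of them passing 2-fold. Cox5b, a zinc-binding subunit, read 12.87, 12.84 and 12.88 on the PPAR gamma siRNA arrays, 14.21, 14.19 and 14.20 on the control siRNA arrays, and 12.87, 12.77 and 12.76 on the preadipocyte arrays. The control siRNA arrays stood alone, and the 2 other groups overlapped at a difference of 0.06 ± 0.08 (adjusted p = 0.597). Its change was 1.40 ± 0.08 in differentiation and -1.34 ± 0.08 with PPAR gamma siRNA against control siRNA (adjusted p = 1.3e-07). Cox8a, a small membrane subunit, read 12.47, 12.47 and 12.47 with PPAR gamma siRNA, 12.9999, 13.09 and 13.16 with control siRNA, and 11.71, 11.62 and 11.56 in preadipocytes. All groups were apart. Its change was 1.45 ± 0.08 in differentiation and -0.61 ± 0.08 with PPAR gamma siRNA against control siRNA, and it stayed 0.84 above preadipocytes (adjusted p = 1.04e-05).

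Ndufa4 was first counted as a complex I subunit and is now placed in complex IV. It read 11.23, 11.46 and 11.50 with PPAR gamma siRNA, 12.54, 12.75 and 12.83 with control siRNA, and 12.06, 11.91 and 11.78 in preadipocytes. Preadipocytes lay between the 2 adipocyte groups with no overlap, whereas in 64 subunits they lay below the PPAR gamma siRNA cells. The gene changed by 0.79 ± 0.11 in differentiation (adjusted p = 0.000109), -1.31 ± 0.11 between the siRNAs (adjusted p = 3.29e-06), and -0.52 ± 0.11 for PPAR gamma siRNA cells against preadipocytes (adjusted p = 0.00382). No other subunit was called below its preadipocyte level in the values as deposited. A further one was called under some alternatives: Cox7c, named here after its values were seen, under 4 settings and without PPAR gamma siRNA array 3 (-0.52, adjusted p = 0.0257), and Sdhc without the second (-0.47, adjusted p = 0.0364). Cox7c was read through a probe set of type s that averaged 5.66, and its other probe set averaged 3.97, below the array medians. The settings for Cox7c include the mean of probe sets and the omission of types x and s, which both bring in that dim probe set. Ndufa4l2, the paralog of Ndufa4 and known as a target of the hypoxia factor HIF, changed by -0.07 ± 0.11 and 0.12 ± 0.11 and was not called.

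The tissue isoforms of complex IV replace the common subunits in heart, skeletal muscle, lung or testis. The 5 within the symbol rule had medians of 0.46 in differentiation and -0.13 with PPAR gamma siRNA. Of them 4 of 5 were higher and 1 of 5 (Cox4i2) lower, against 27.1% and 16.1% of all genes. The isoforms Cox7a1 and Cox8b, which the rule leaves out, changed by 5.90 and 5.89 in differentiation and by -2.53 and -2.06 between the siRNAs. Cox6a2, the heart and muscle isoform, read 7.59, 7.02 and 7.13 with PPAR gamma siRNA, 7.72, 7.46 and 7.57 with control siRNA, and 6.28, 6.31 and 5.999 in preadipocytes. The adipocyte groups overlapped and both lay above preadipocytes, at 1.39 ± 0.15 for control siRNA (adjusted p = 8.43e-06) and 1.05 ± 0.15 for PPAR gamma siRNA (adjusted p = 0.000176). Between the siRNAs its change was -0.34 ± 0.15 (adjusted p = 0.124), and -0.51 without the first PPAR gamma siRNA array (adjusted p = 0.00952). The common form Cox6a1 rose by 0.82 and fell by 0.66 on the log2 scale. Taken array by array as a difference from Cox6a2, the 2 forms' changes differed by -0.57 ± 0.12 in differentiation (two-sided exact permutation test, p = 0.1, the smallest that 3 arrays against 3 can give) and by -0.32 ± 0.20 between the siRNAs (exact p = 0.2). These differences rest on the main probe sets, of which that of Cox6a1 was bright, with a mean of 13.75. A second Cox6a1 probe set, of type s and mean 12.39, gave 1.36 in differentiation and -1.04 between the siRNAs. For a second Cox6a2 probe set the values were 1.01 and -0.39. Cox6b2 and Cox8c, known from testis, were not called between the siRNAs. Cox4i2, the lung and hypoxia form, averaged 4.57, 4.85 and 4.39 with PPAR gamma siRNA, with control siRNA and in preadipocytes, and its common counterpart Cox4i1 changed by 1.19 and -0.67. Cox6b1 changed by 1.33 and -0.81, against 0.63 and -0.07 for Cox6b2. Over the 9 arrays the probe sets of Cox4i2, Cox6b2 and Cox7b2 averaged 4.60, 4.71 and 3.16, below the array medians. Cox7b2 changed by 0.32 in differentiation (adjusted p = 0.0244), a call lost without the first control siRNA array or without either of preadipocyte arrays 2 and 3 (adjusted p from 0.0864 to 0.0894). The change of Cox4i2 with PPAR gamma siRNA, -0.28 (adjusted p = 0.0178), was lost as a call without the second PPAR gamma siRNA array (adjusted p = 0.0531) or control siRNA array 3 (adjusted p = 0.0578).

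**Figure D4:**
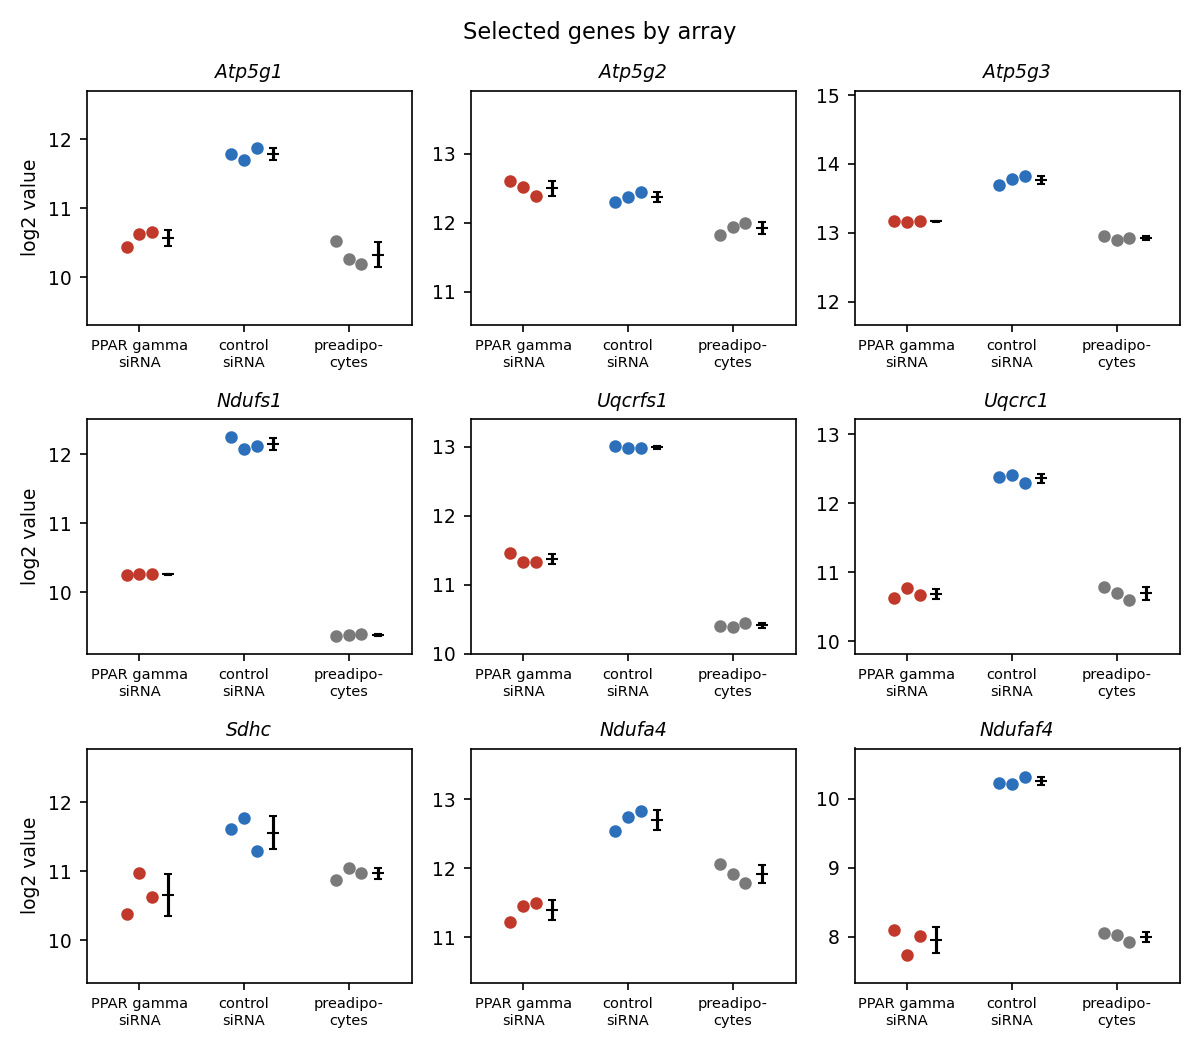
Log2 level of selected genes on each array, with PPAR gamma siRNA left, control siRNA in the middle and preadipocytes right, and a bar at the group mean with its SD (n = 3). Ndufs1 and Uqcrfs1 show 3 separate levels, Uqcrc1 and Ndufaf4 lie near the preadipocyte level with PPAR gamma siRNA, Ndufa4 falls below it, and the 2 adipocyte groups overlap for Atp5g2.

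Complex V makes ATP. All 17 measured subunits rose in differentiation and 16 fell between the siRNAs. The 9 subunits of the catalytic head and stalk had medians of 1.18 and -1.05, and the 8 of the membrane part and proton ring 1.02 and -0.64. Atp5b, the catalytic beta subunit, read 12.75, 12.83 and 12.78 on the PPAR gamma siRNA arrays, 14.01, 14.13 and 14.10 on the control siRNA arrays, and 12.93, 12.93 and 12.85 on the preadipocyte arrays. The control siRNA arrays were highest, and the PPAR gamma siRNA arrays lay just below the preadipocyte arrays. The change was 1.18 ± 0.08 in differentiation (adjusted p = 1.56e-07), -1.29 ± 0.08 with PPAR gamma siRNA against control siRNA (adjusted p = 2.14e-07) and -0.12 ± 0.08 against preadipocytes (adjusted p = 0.312). Atp5a1, the alpha subunit, changed by 1.39 and -1.05, and Atp5d, the delta subunit of the stalk, by 1.73 and -1.14. Atp5c1, the gamma subunit whose rotation drives catalysis, changed by 1.24 and -1.29, read through a probe set that the maker marks as matching several transcripts, and the only other probe set for the gene, which averaged 5.51, gave -0.061 and -0.08. Between the siRNAs Atp5j2 fell by 0.61 and Atp5j by 0.53 on the log2 scale.

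The proton ring is built from 1 protein, subunit c, encoded by 3 paralogs that differ in the import peptide that is removed, and the values of these 3 genes differed. Their promoters are shown here from RefSeq on GRCm38.p6, from 250 bases before to 50 after the start of transcription, so that the paralogs can be set side by side, together with those of Sdhd and Uqcr11, 2 of the 5 subunits (the others are Atp5k, Atp5l and Cox6a1) that hold more than 1 of the motifs searched. Capitals mark a match to the motif of the ETS factor GABPA (CCGGAAG), of the oestrogen-related receptors (TCAAGGTCA) or of NRF1 (GCGCATGCG) on either strand, where both orientations of the NRF1 motif can overlap in 1 site. The windows are chr11:96075582-96075881, minus strand, for Atp5g1, chr15:102670998-102671297, minus strand, for Atp5g2, chr2:73911277-73911576, minus strand, for Atp5g3, chr9:50603800-50604099, minus strand, for Sdhd, and chr10:80406772-80407071, minus strand, for Uqcr11.
Atp5g1: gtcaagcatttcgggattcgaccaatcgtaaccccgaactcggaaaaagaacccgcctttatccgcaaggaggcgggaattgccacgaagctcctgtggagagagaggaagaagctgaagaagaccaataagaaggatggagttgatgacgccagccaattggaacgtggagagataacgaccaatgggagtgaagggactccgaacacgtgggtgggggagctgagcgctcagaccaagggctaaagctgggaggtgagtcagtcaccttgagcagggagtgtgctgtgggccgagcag
Atp5g2: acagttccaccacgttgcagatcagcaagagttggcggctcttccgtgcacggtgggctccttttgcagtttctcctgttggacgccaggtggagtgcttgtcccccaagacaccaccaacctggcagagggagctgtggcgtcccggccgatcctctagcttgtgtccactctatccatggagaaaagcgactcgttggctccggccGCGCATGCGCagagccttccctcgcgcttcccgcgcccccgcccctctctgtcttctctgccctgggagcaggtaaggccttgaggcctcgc
Atp5g3: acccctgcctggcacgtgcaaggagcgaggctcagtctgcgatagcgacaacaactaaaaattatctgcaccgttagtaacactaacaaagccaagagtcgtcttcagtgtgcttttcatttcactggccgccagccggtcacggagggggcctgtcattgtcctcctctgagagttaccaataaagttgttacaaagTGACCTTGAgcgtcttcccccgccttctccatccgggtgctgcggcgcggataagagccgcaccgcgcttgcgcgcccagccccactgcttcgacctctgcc
Sdhd: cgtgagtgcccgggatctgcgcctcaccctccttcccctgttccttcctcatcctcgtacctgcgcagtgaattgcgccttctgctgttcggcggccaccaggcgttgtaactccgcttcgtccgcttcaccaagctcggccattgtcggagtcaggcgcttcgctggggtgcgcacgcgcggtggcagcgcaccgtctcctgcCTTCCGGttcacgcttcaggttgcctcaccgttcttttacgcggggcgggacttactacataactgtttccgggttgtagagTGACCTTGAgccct
Uqcr11: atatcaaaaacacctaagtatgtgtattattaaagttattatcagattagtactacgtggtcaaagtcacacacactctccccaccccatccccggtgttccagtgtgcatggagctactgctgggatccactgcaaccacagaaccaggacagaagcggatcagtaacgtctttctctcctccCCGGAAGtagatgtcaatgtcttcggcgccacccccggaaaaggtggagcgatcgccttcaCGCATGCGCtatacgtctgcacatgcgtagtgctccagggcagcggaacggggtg

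Atp5g1 holds none of the 3 motifs in this window, Atp5g2 the NRF1 motif and Atp5g3 the receptor motif. Sdhd holds the GABPA and receptor motifs, and Uqcr11 the GABPA and NRF1 motifs. A match describes letters only, and no binding was measured. Atp5g1 read 10.44, 10.62 and 10.65 with PPAR gamma siRNA, 11.78, 11.70 and 11.87 with control siRNA, and 10.53, 10.26 and 10.19 in preadipocytes. The PPAR gamma siRNA and preadipocyte arrays overlapped, and the changes were 1.45 ± 0.11 in differentiation and -1.21 ± 0.11 with PPAR gamma siRNA against control siRNA (adjusted p = 4.22e-06). Atp5g3 read 13.17, 13.16 and 13.18 with PPAR gamma siRNA, 13.70, 13.78 and 13.82 with control siRNA, and 12.95, 12.90 and 12.93 in preadipocytes, with no overlap and changes of 0.84 ± 0.08 and -0.60 ± 0.08 (adjusted p = 8.1e-05). Atp5g2 read 12.60, 12.52 and 12.38 with PPAR gamma siRNA, 12.30, 12.37 and 12.44 with control siRNA, and 11.83, 11.94 and 11.999 in preadipocytes. Here the adipocyte groups overlapped and both lay above preadipocytes, at 0.13 ± 0.09 between the siRNAs (adjusted p = 0.363) and 0.45 ± 0.09 in differentiation (adjusted p = 0.00149). Quantile normalisation applied again moved the difference between the siRNAs to 0.27 (adjusted p = 0.0489), which is a call. Set against Atp5g2 on each array, the change with PPAR gamma siRNA differed by -1.34 ± 0.13 for Atp5g1 and by -0.73 ± 0.06 for Atp5g3 (± SE). Each exact permutation p was 0.1, the smallest that 3 arrays against 3 can give, and 0.114 when adjusted over the 8 paralog comparisons made.

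Of the 79 subunits, 64 had a promoter in the RefSeq table, and 21 of these held at least 1 motif. The GABPA motif was found in 17 of 64 (26.6%), against 15.03% of the 14368 measured genes with a promoter and 8.86% of all 32851 promoters. The NRF1 motif was found in 7 (10.9%), against 3.10% and 1.75%, and the receptor motif in 2 (3.13%), against 0.404% and 0.423%. By complex, the GABPA motif was in 4 of 31 promoters of complex I, 2 of 3 of II, 2 of 5 of III, 3 of 10 of IV and 6 of 15 of V. These shares are descriptions without a test.

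Complex I is built with the help of dedicated assembly factors, which leave the finished complex. All 8 measured Ndufaf genes rose in differentiation, against 27.1% of all genes, and 7 fell between the siRNAs, against 16.1%. Their medians were 1.12 and -0.77. Ndufaf4, which acts in early assembly, read 8.10, 7.74 and 8.01 on the PPAR gamma siRNA arrays, 10.23, 10.22 and 10.32 on the control siRNA arrays, and 8.06, 8.02 and 7.92 on the preadipocyte arrays. The PPAR gamma siRNA and preadipocyte arrays overlapped. It rose by 2.26 ± 0.10 in differentiation (adjusted p = 5.15e-09) and changed by -2.31 ± 0.10 with PPAR gamma siRNA (adjusted p = 1.91e-08), a 4.95-fold fall and a larger one than that of any of the 79 subunits. Ndufaf1, a partner of the early membrane arm, changed by 2.09 and -1.10 and stayed 0.998 above preadipocytes. Ndufaf3, a partner of Ndufaf4, was 0.01 ± 0.08 between the siRNAs (adjusted p = 0.946) and 0.66 in differentiation (adjusted p = 3.5e-05). Ndufaf5 and Ndufaf6 changed by 1.36 and 1.48 in differentiation and by -0.98 and -1.21 with PPAR gamma siRNA. For Ndufaf2, Ndufaf7 and Ndufaf8 the changes with PPAR gamma siRNA were -0.55, -0.30 and -0.34. Cox7a2l, which helps join complexes III and IV, rose by 0.32 ± 0.10 in differentiation (adjusted p = 0.0236), a call lost in 7 of the 19 alternative settings, among them without control siRNA array 1 or 3 or preadipocyte array 1 or 2 (adjusted p up to 0.0803 for these), and 0.03 ± 0.10 between the siRNAs.

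Other genes around the chain were read from 5 lists, of which 86 of 91 entries were measured. Their counts stand against 27.1% of all genes higher and 24.7% lower in differentiation, and 16.1% lower and 19.9% higher between the siRNAs. Of 21 assembly factors of complexes I to III and V outside the symbol rule, 18 rose and 2 fell in differentiation, and 14 fell and 2 rose between the siRNAs. Foxred1, for complex I, changed by 2.85 and -2.08, and Uqcc1, for complex III, by 2.43 and -2.19. Uqcc2, its partner in the synthesis of cytochrome b, went the other way, with -0.71 ± 0.11 (adjusted p = 0.000165) and 0.80 ± 0.11 (adjusted p = 0.000117). Of 20 assembly factors of complex IV, 17 rose in differentiation and 17 fell between the siRNAs, with 0 the other way, and the copper chaperone Cox17 fell by 1.77 on the log2 scale with PPAR gamma siRNA. That call rests on 1 probe set of its gene: the mean of all gave -0.93.

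Electron carriers and further entry points into the chain were also higher in fat cells. Of 18 measured, 17 rose in differentiation and 16 fell between the siRNAs, with medians of 1.83 and -1.22. Coq8a, needed for ubiquinone synthesis, had 5.15 in differentiation, and Coq3, a methyltransferase of that pathway, 3.04 and -2.44. Etfb, the electron transfer flavoprotein that links fatty acid oxidation to the chain, changed by 2.48 and -2.19. Of 6 carriers of adenine nucleotides, phosphate and protons, 3 rose in differentiation, against 27.1% of all genes, and 3 fell between the siRNAs, against 16.1%. The nucleotide exchanger Slc25a5 changed by 1.88 and -1.20, whereas its paralog Slc25a4 was -0.09 ± 0.08 and -0.01 ± 0.08, neither called. The uncoupling protein of brown fat, Ucp1, read 3.95, 3.96 and 3.92 in PPAR gamma siRNA, control siRNA and preadipocyte cells, below the array medians.

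**Figure D5:**
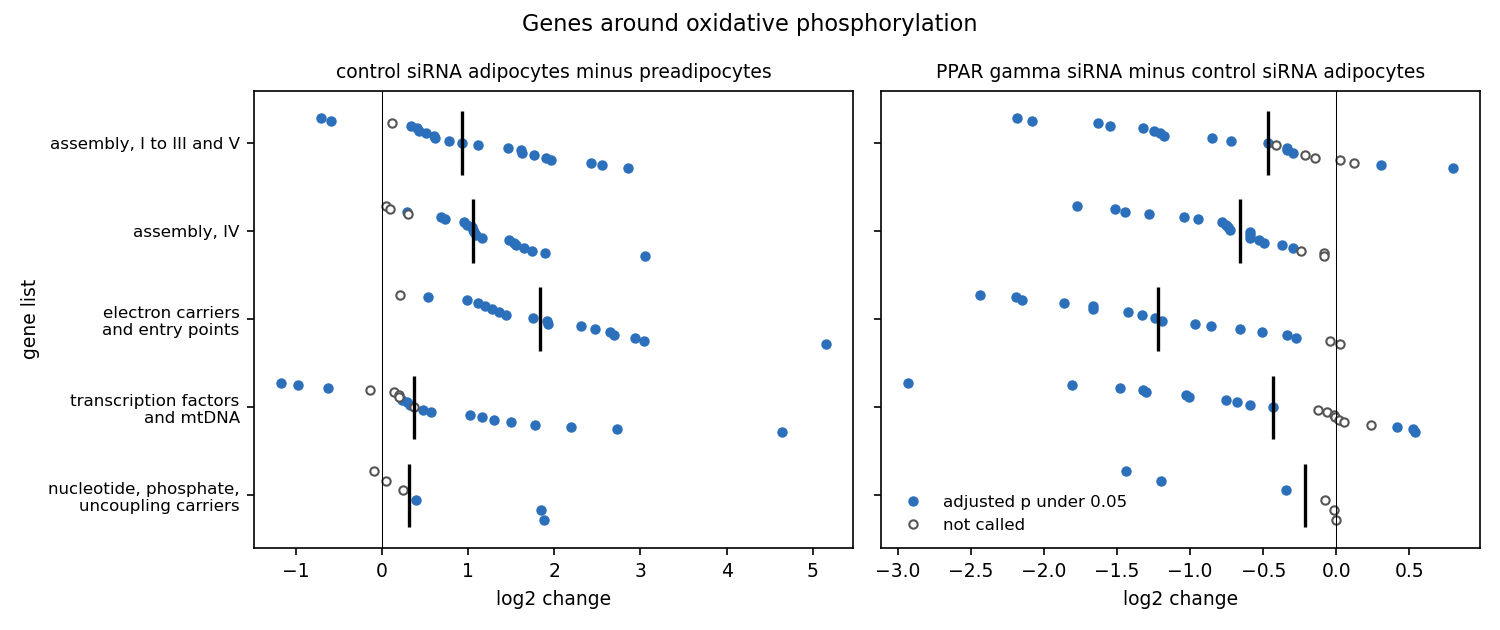
Log2 changes of the measured genes of the 5 lists around oxidative phosphorylation, 1 point per gene and a bar at the median, for control siRNA adipocytes against preadipocytes and PPAR gamma siRNA against control siRNA. The electron carriers and entry points have the medians farthest from 0, at 1.83 and -1.22, and transcription factors fall on both sides of 0.

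Of 21 factors for the transcription of respiratory genes and the upkeep of mitochondrial DNA, 13 rose and 3 fell in differentiation, and 11 fell and 3 rose between the siRNAs. The 3 in the opposite direction are a smaller share than among all genes in both comparisons (24.7% and 19.9%). Ppargc1b, a coactivator of respiratory genes, read 7.38, 7.45 and 7.46 with PPAR gamma siRNA, 10.32, 10.40 and 10.35 with control siRNA, and 5.65, 5.84 and 5.64 in preadipocytes. Its levels were apart in all 3 groups, with changes of 4.65 ± 0.08 and -2.93 ± 0.08 (adjusted p = 1.12e-09). Esrra, the oestrogen-related receptor alpha, changed by 2.19 and -1.81. Ppargc1a changed by 2.73 and -1.30. Gabpb1, a partner of GABPA, went against the list, at -1.17 in differentiation (adjusted p = 1.11e-05) and 0.54 with PPAR gamma siRNA against control siRNA (adjusted p = 0.00683). Pprc1, a further coactivator of this family, was -0.97 and -0.01.

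The 51 members with several probe sets had 89 besides the one used, of which 74 had the same call in differentiation and 2, for Atp5g1 and Ndufs4, the opposite one. With PPAR gamma siRNA against control siRNA 68 had the same call and 0 the opposite. For PPAR gamma siRNA against preadipocytes 41 of the 89 had the same call, 37 were not called and 2, for Ndufab1 and Ndufb8, had the opposite one. Among markers of RNA quality, Actb read through its 3' probe set exceeded its 5' reading by 0.79 ± 0.40, 1.04 ± 0.22 and 0.30 ± 0.06 with PPAR gamma siRNA, with control siRNA and in preadipocytes (log2, ± SD). The same difference for Gapdh did not follow this pattern, at -0.02 ± 0.07, -0.02 ± 0.12 and -0.12 ± 0.09. With the Actb difference as a covariate 74 subunits were higher in differentiation and 73 lower with PPAR gamma siRNA, with medians of 1.24 and -0.91, while 48 rather than 57 stayed higher with PPAR gamma siRNA than in preadipocytes.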

How the data were processed

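Gene expression was measured in 9 samples of 3T3-L1 cells, 1 single-colour array each, in 3 groups of 3 taken from the sample titles. The authors deposited 1 table of log2 levels per probe set, with near-equal array medians. The log2 scale was read from their range, since no source used here states it. MAS5, RMA and affy 1.16.0 are named in the submitters' processing notes without a role or an order, so the step that made the values is not stated here.

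No further scaling was applied. After 64 control probe sets were left out, 45037 were fitted with limma 3.58.1 in R 4.3.3, with a mean per group over all 9 arrays, moderated variances, two-sided tests and Benjamini-Hochberg adjustment within each of the 3 comparisons. A call is an adjusted p under 0.05. The fit was tested on simulated data with 200 changed genes. Over the 3 comparisons it called 0% to 2% of 1.2-fold and 34% to 46% of 1.5-fold changes. At 2-fold it called 80% to 82%, and at 4-fold 98% to 100%. A log2 change is the first group minus the second, and its SE is that of the fit. Array number, 3 a group, limits the precision.

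Symbols came from the platform's annotation table, and probe sets with several symbols were left out (10 of the members). Listed genes without a single-symbol probe set, such as Ndufs6, Ndufa11, Cox7b and Plin1, were not analysed here. Of the members, 51 had several probe sets, 17 were read through a probe set of type x or s, which can match related transcripts, and 3 were dim (highest group mean under the median of all array values). Genes were named by rule: for complexes I, III, IV and V the 2 highest and 2 lowest changes in differentiation and between the siRNAs, all of complex II, all set apart, core subunits, paralogs, subunits not called, and the 2 highest and 2 lowest of each pathway list. The members and the lists were chosen with earlier results of these data known. Markers not in that rule are the fixed cell type lists. Promoters were matched by symbol in a RefSeq table, for 72 of 89 members.

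Replicate numbers do not pair the arrays, since same-numbered arrays did not deviate together in every pair. Alternatives were a second quantile normalisation, median centring of arrays, a filter on dim probe sets, a fit restricted to 2 groups, robust variances with an intensity trend, the mean of a gene's probe sets, omission of types x and s, a replicate block, the Actb 3' minus 5' difference as a covariate or omission of the 2 arrays where it was highest, a 2-fold minimum, another assignment of Ndufa4, omission of the tissue isoforms and leaving out each array in turn.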

Additional observations from a re-analysis of the deposited data

How the results depend on the processing

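In every setting tried, the medians of all 5 complexes kept their sign in the 3 comparisons. Differentiation below is control siRNA adipocytes against preadipocytes, the siRNA comparison is PPAR gamma siRNA against control siRNA, and the third comparison is PPAR gamma siRNA against preadipocytes. Of 4656 recomputed values of named genes, 4550 kept their side of the threshold, 78 lost and 26 gained a call, and 2 reversed. The reversals were Atp5c1 in differentiation (-0.061 without x and s probe sets) and Ndufab1 in the third comparison (-0.13 as a mean of its probe sets). A block of replicate number left 77 subunits higher in differentiation, 73 lower in the siRNA comparison and 55 higher in the third, though the numbers were not taken to pair the arrays. With the Actb covariate the medians were 1.83 in complex II, 0.98 in complex IV, 1.01 in complex V in differentiation, -0.65 in complex V in the siRNA comparison, and 0.60 in complex II, 0.26 in complex IV, 0.27 in complex V in the third, where 6 of complex V were higher, and 2 of complex IV were lower, as without the 2 arrays of highest Actb difference. Without those arrays the medians were 1.73 in complex III in differentiation and 0.27 in complex V in the third comparison. As means of all probe sets of a gene, they were 1.33 in complex II, 1.67 in complex III, 0.86 in complex IV, 1.06 in complex V, 1.20 in all subunits in differentiation, -0.94 in complex I, -0.9998 in complex II, -0.82 in all subunits in the siRNA comparison and 0.42 in complex II, 0.69 in complex III, 0.26 in complex V, 0.33 in all subunits in the third, with 2 of complex IV lower. Quantile normalisation applied again gave 1.63 in complex II, 1.65 in complex III, 0.99 in complex IV, 1.06 in complex V in differentiation and -0.90 in complex I, -1.02 in complex II, -0.82 in all subunits in the siRNA comparison, with 1 subunit, Atp5g2 of complex V, higher. Without x and s probe sets, which left 75 subunits, the medians were 1.31 in complex I, 1.67 in complex III in differentiation, -0.92 in complex III, -0.61 in complex IV, -0.83 in all subunits in the siRNA comparison and 0.69 in complex III in the third, with 2 of complex IV lower. Complex IV had 1.20, -0.74 and 0.29 in the 3 comparisons without its tissue isoforms, 1.19 in differentiation and 0.39 in the third without dim probe sets, and 1.06 and 0.29 there with Ndufa4 counted in complex I. With a 2-fold minimum 7 subunits of complex IV and 10 of complex V were higher in differentiation. In the siRNA comparison 18, 2, 5, 4 and 7 of complexes I to V were lower, 36 in all, and in the third 0, 0, 1, 1 and 0 were higher, 2 in all, and 0 lower. Leaving out single arrays, the median of complex I ranged from -1.05 to -0.98 in the siRNA comparison and from 1.24 to 1.31 in differentiation, that of complex III from 1.73 to 1.80 in differentiation, from -1.19 to -1.12 in the siRNA comparison and from 0.77 to 0.85 in the third, that of complex IV from 0.17 to 0.26 in the third, and that of complex V from -0.74 to -0.67 in the siRNA comparison and from 0.27 to 0.33 in the third. In the third comparison the count of complex V subunits higher ranged from 7, without the second preadipocyte array, to 12, that of subunits lower from 1 to 2 in all and in complex IV, and from 0 to 1 in complex II. Except where an alternative tests fewer genes, the cause of these moves was not tested. The signal of bright probes near the array maximum limits how far their changes can be read.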

Other observations

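One mitochondrially encoded subunit has a probe set of its own here, although the symbol rule does not reach it and it was chosen after its values were seen. ND5, a proton-pumping core subunit of complex I encoded in mitochondrial DNA, read 13.48, 13.78 and 13.67 on the PPAR gamma siRNA arrays, 13.46, 13.78 and 13.55 on the control siRNA arrays, and 13.39, 13.52 and 13.57 on the preadipocyte arrays. The 3 groups overlapped. Its log2 change was 0.10 ± 0.11 in control siRNA adipocytes against preadipocytes (limma adjusted p = 0.475) and 0.05 ± 0.11 with PPAR gamma siRNA against control siRNA (adjusted p = 0.817), against medians of 1.26 and -1.02 for the nuclear subunits of complex I. The probe set was bright, with means of 13.64, 13.60 and 13.49 in PPAR gamma siRNA cells, control siRNA cells and preadipocytes, and what part saturation and the priming of mitochondrial RNA have in its values was not tested. Cox7a1 and Cox8b, muscle and brown fat isoforms of complex IV that the symbol rule leaves out, had larger changes than any of the 79 subunits. Cox7a1 read 7.40, 7.14 and 7.29 with PPAR gamma siRNA, 9.69, 9.91 and 9.83 with control siRNA, and 3.94, 4.06 and 3.71 in preadipocytes. Its groups lay far apart, with log2 changes of 5.90 ± 0.11 in differentiation, -2.53 ± 0.11 between the siRNAs and 3.37 ± 0.11 for PPAR gamma siRNA against preadipocytes (adjusted p at most 1.9e-08 in these 3). Cox8b changed by 5.89 ± 0.11, -2.06 ± 0.11 and 3.83 ± 0.11 in the same comparisons.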
